A study of Mus musculus with 25 samples.

Results

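Mice given (-)-vestitol and salviolone together were set against mice given salviolone alone, in RNA sequencing of the brain cortex. All 5 libraries of each group were taken, as the sample labels name them, 10 of the 25 libraries of the study. The combination group received 2.5 mg/kg of each compound and the salviolone group 5 mg/kg of salviolone, so the total dose was 5 mg/kg in both. The combination mice thus differed from the salviolone mice both by the added vestitol and by a lower salviolone dose, and the effects of those changes cannot be told apart in this comparison. Vestitol is an isoflavan found in legumes, and salviolone is a diterpenoid of Salvia species. Both groups were male transgenic mice aged 6 months with APPswe and a further transgene on the B6C3 background, injected intraperitoneally every day for 3 months. The transgenes, which make amyloid accumulate in the cortex, are driven by the mouse prion protein promoter. The other 15 libraries came from mice of the same transgenic strain on vestitol at 5 mg/kg, the same strain on vehicle (the model control), and wild type C57BL/6J mice on vehicle, with 5 mice in each. Each library came from a separate mouse.

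Neurons of the striatum, a nucleus below the cortex, arise from the ventral forebrain under factors such as the MEIS and DLX proteins, and use GABA, dopamine receptors and cyclic AMP signalling. Excitatory neurons of the cortex instead carry layer factors such as TBR1 and FEZF2, and nuclear factor I proteins such as NFIX act in cortical progenitors and glia. Immediate-early genes are switched on within minutes of neuronal activity, and many of them encode transcription factors.

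The combination and salviolone libraries differed in a large number of genes. Of 16515 genes tested, 2954 (17.9%) were called, 1595 (9.66%) higher and 1359 (8.23%) lower with the combination. Calls, and the words rose and fell, rest on an adjusted p below 0.05 (edgeR quasi-likelihood F test, Benjamini-Hochberg over the 16515 genes). Most changes were small: the median size over called genes was 0.44 on the log2 scale, a 1.36-fold difference, and 489 genes (2.96%) changed at least 2-fold, 349 of them (2.11%) upward and 140 (0.848%) downward. All 5 combination mice lay above all 5 salviolone mice in 1407 genes (8.52%) and below them in 1201 (7.27%), together 2608 (15.8%), and 2202 of the called genes were among these. Levels are CPM (each count is scaled by its library total after TMM), as single mice or as mean ± SD (5 mice in each group), and log2 fold changes (combination over salviolone) with their standard error.

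Libraries and tissue markers moved with the groups. Total counts were 71606813 to 109776852 in the combination libraries and 59376320 to 72743740 in the salviolone libraries, so that 4 combination libraries were deeper than every salviolone library. With all libraries thinned to the depth of the smallest, 2962 genes were called. Without the 3 deepest combination libraries (replicates 3, 4 and 5), 1476 genes were called, 869 higher and 607 lower. Only combination mice 1 and 2 were left in that fit. Over the genes called with all libraries, the median size of its log2 fold changes was 0.437, against 0.441. The median standard error was 0.138, against 0.103. Mean log2 CPM over a list of hypothalamus and basal forebrain genes was 2.49 to 4.10 in combination mice and 0.33 to 0.91 in salviolone mice, and over a list of striatal genes 6.34 to 6.94 and 5.55 to 5.85. In wild type mice the hypothalamus score was 0.20 to 3.27, with 4 of 5 mice above every salviolone mouse, in the model control 0.27 to 2.05 and with vestitol -0.19 to 0.83. The striatal score was 5.83 to 6.34 in wild type mice, 5.74 to 6.14 in the model control and 5.92 to 6.55 with vestitol. Its highest vestitol mouse lay within the combination range. The mean striatal score was lowest with salviolone (5.71) and highest with the combination (6.64) of the 5 groups. The summed level of the 24 hypothalamus genes was 1060 to 1532 CPM with the combination, against 431 to 473 CPM with salviolone. With either score as a covariate no gene was called (edgeR), with 1138 genes at an unadjusted p under 0.05 for the hypothalamus score and 1808 for the striatum score. The groups do not overlap in these scores, so treatment and the amount of such RNA in the sample cannot be told apart, for the genes and lists that follow. In bulk RNA, more cells of a type and more RNA per cell cannot be told apart either.

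**Figure D1:**
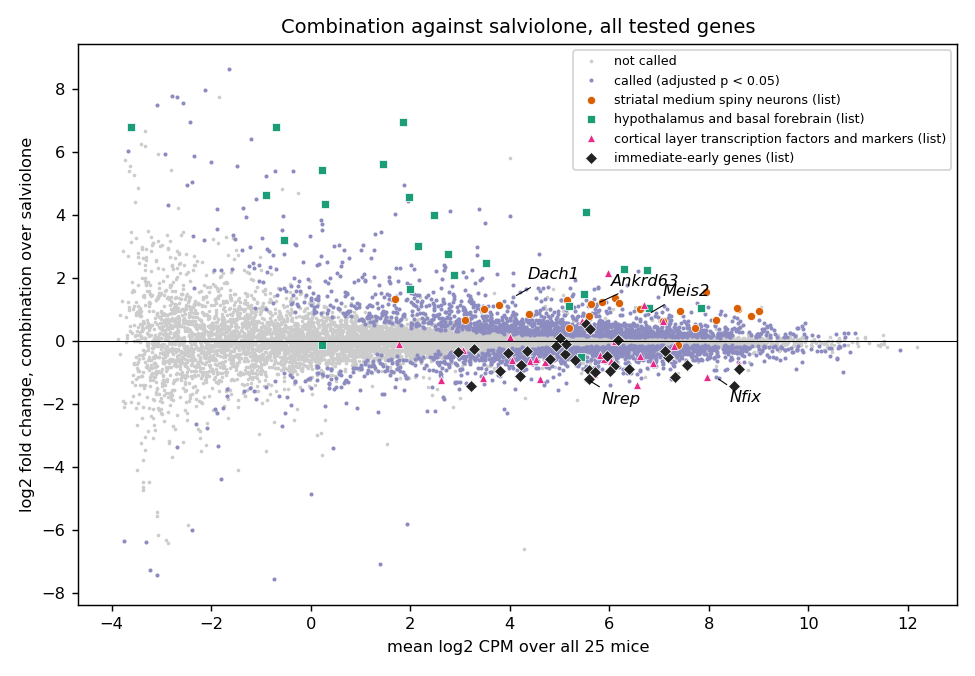
Log2 fold change (combination over salviolone) against mean log2 CPM over the 25 mice for the 16515 tested genes, with called genes in violet and the members of 4 lists as larger symbols. Striatal and hypothalamus genes lie mostly above 0, and cortical layer and immediate-early genes mostly below it.

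The transgenes were checked first. App, the gene of the amyloid precursor protein and of the chimeric human and mouse transgene (chromosome 16, 84746573 to 84970654, mm39), stood at 3675, 3776, 4169, 3733 and 3439 CPM in combination mice, against 3979, 4439, 4965, 5066 and 4576 CPM in salviolone mice. Combination mouse 3 exceeded salviolone mouse 1, and the other mice kept the groups apart. App fell (log2 fold change -0.29 ± 0.07, adjusted p = 0.00637, edgeR quasi-likelihood). Prnp, whose promoter drives the transgenes and whose mouse sequence they share, was at 1619 ± 145 CPM with the combination and 1876 ± 127 CPM with salviolone (log2 fold change -0.21 ± 0.07, adjusted p = 0.0309, edgeR). The Prnp call was lost on leaving out any of combination mice 2, 4 and 5 or salviolone mice 2, 3 and 4, and both calls were lost without the 3 deepest combination libraries. Wild type mice, without a transgene, had 1672 ± 165 CPM of App. For the cortex label, Slc17a7, the vesicular glutamate transporter of cortical excitatory neurons, was looked up, and it was present in all 10 mice. It stood at 1162, 1178, 1148, 839 and 915 CPM in combination mice, against 1236, 1267, 1388, 1272 and 1299 CPM in salviolone mice. Every combination mouse lay below every salviolone mouse. The presence of Slc17a7 cannot tell whether other brain tissue was in a sample.

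The 5 marker genes named for the comparison were chosen with earlier results of these data known. That all 5 were called, with no overlapping groups, is therefore no independent result. Over all tested genes, the groups did not overlap in 15.8%. Dach1 (chromosome 14, 98024289 to 98406979, mm39), which encodes a transcriptional cofactor of the dachshund family, stood at 26.7, 21.3, 22.0, 27.5 and 26.0 CPM in combination mice, against 10.1, 11.1, 8.50, 9.80 and 7.55 CPM in salviolone mice. Every combination mouse lay above every salviolone mouse. The log2 fold change was 1.39 ± 0.14 (adjusted p = 5.05e-06, edgeR quasi-likelihood), a 2.63-fold rise. Meis2 (chromosome 2, 115693545 to 115896320), a homeodomain factor of striatal precursors and neurons, was at 142, 137, 129, 163 and 160.2 CPM in combination mice, against 70.8, 88.4, 85.5, 72.7 and 87.6 CPM in salviolone mice. The lowest combination mouse lay well above the highest salviolone mouse. Its log2 fold change was 0.85 ± 0.09 (adjusted p = 5.05e-06, edgeR). Ankrd63 (chromosome 2, 118529584 to 118534444), an ankyrin repeat gene, was at 81.1, 70.6, 65.8, 93.5 and 80.0 CPM in combination mice, against 30.1, 37.5, 38.4, 30.9 and 34.7 CPM in salviolone mice, and its groups were also apart. Its log2 fold change was 1.19 ± 0.12 (adjusted p = 5.05e-06, edgeR).

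The other 2 markers fell. Nfix (chromosome 8, 85431341 to 85526973), a nuclear factor I transcription factor, was at 146, 182, 196, 148 and 164 CPM in combination mice, against 372, 364, 346, 367 and 389 CPM in salviolone mice. The combination mice spanned 146 to 196 CPM and the salviolone mice 346 to 389 CPM, without overlap. The log2 fold change was -1.14 ± 0.13 (adjusted p = 6.6e-06, edgeR quasi-likelihood). Nrep (chromosome 18, 33570072 to 33597082), a neuronal regeneration related gene, was at 24.4, 32.0, 28.9, 31.1 and 29.9 CPM in combination mice, against 78.1, 68.8, 68.6, 56.1 and 64.2 CPM in salviolone mice. No combination mouse reached the lowest salviolone mouse, and the log2 fold change was -1.199 ± 0.14 (adjusted p = 6.6e-06, edgeR). With the hypothalamus score as a covariate the log2 fold changes were 1.07 for Dach1, 0.72 for Meis2, 0.81 for Ankrd63, -0.55 for Nfix and -0.78 for Nrep, and with the striatum score 0.67, 0.27, 0.58, -0.85 and -1.14 in the same order. All 5 kept their direction in both, and none was called in either.

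**Figure D2:**
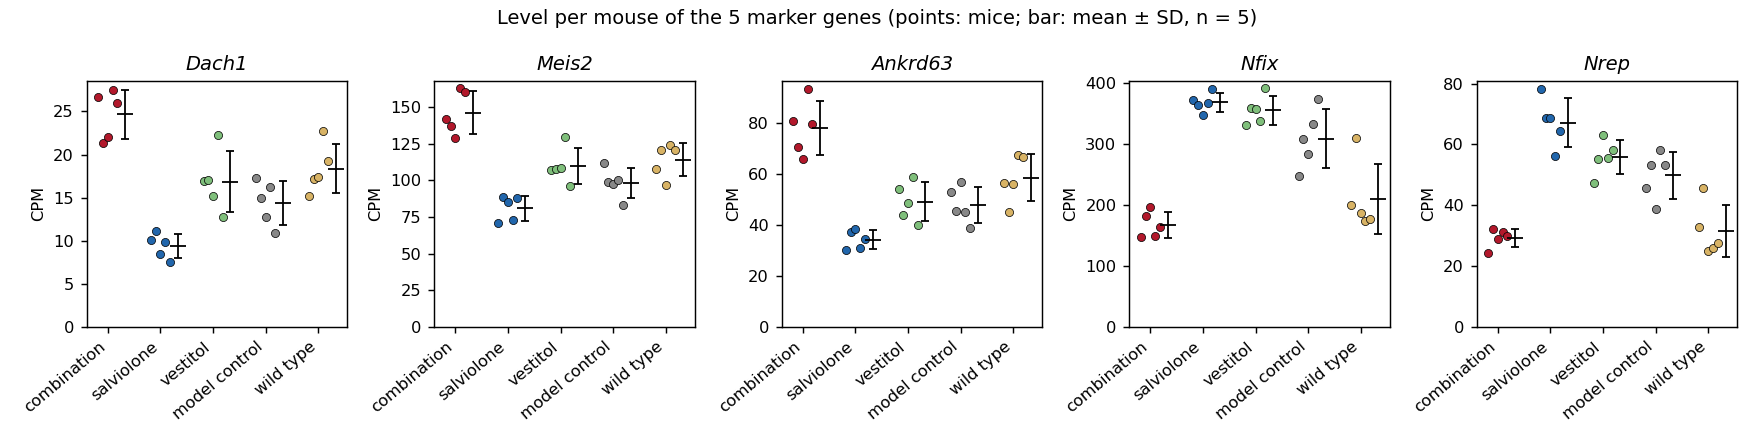
CPM of the 5 marker genes in each mouse (points), with the mean ± SD of the 5 mice, in the combination, salviolone, vestitol, model control and wild type groups. Dach1, Meis2 and Ankrd63 are higher, and Nfix and Nrep lower, in every combination mouse than in every salviolone mouse, and the vestitol and model control means lie between those of the combination and salviolone mice.

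The levels in the other groups were as follows. Dach1 averaged 24.7 ± 2.84 CPM with the combination, 9.40 ± 1.39 CPM with salviolone, 16.9 ± 3.50 CPM with vestitol, 14.4 ± 2.59 CPM in model control mice and 18.4 ± 2.85 CPM in the wild type. The salviolone mean was thus the lowest of the 5 and the combination mean the highest. Against the model control, Dach1 had a log2 fold change of 0.78 ± 0.14 with the combination (adjusted p = 0.000729, edgeR) and -0.61 ± 0.14 with salviolone (adjusted p = 0.101, edgeR). Meis2 gave 0.57 ± 0.09 with the combination and -0.28 ± 0.09 with salviolone, and Ankrd63 0.71 ± 0.12 and -0.48 ± 0.12. The log2 fold changes of Nfix against the model control were -0.88 ± 0.13 with the combination and 0.25 ± 0.13 with salviolone. Nrep gave -0.77 ± 0.14 and 0.43 ± 0.14. All 5 genes were called for the combination against the model control. None was called for salviolone against the model control, with adjusted p of 0.101 (Dach1) to 0.462 (Nfix, edgeR). These contrasts share mice with each other. Over all genes, the combination against the model control gave 2471 calls (15.0%), of which 1293 were higher (7.83%) and 1178 lower (7.13%), and salviolone against the model control 4 calls (0.0242%), all lower. The combination against vestitol gave 3609 calls (21.9%), 1860 higher (11.3%) and 1749 lower (10.6%). In wild type mice Nfix was at 209 ± 57.3 CPM and Nrep at 31.4 ± 8.59 CPM.

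Striatal genes rose together. Of 24 genes of striatal medium spiny neurons, 21 rose (87.5%, against 9.66% of all tested genes) and 3 were not called. The median log2 fold change was 1.02, against 0.00 over all tested genes. In all 21 the groups did not overlap, against 74.5% of all called genes. Penk, the enkephalin precursor of indirect-pathway neurons, stood at 420.0, 361, 315, 492 and 439 CPM in combination mice, against 90.8, 167, 121, 130.2 and 182 CPM in salviolone mice. The lowest combination mouse lay above the highest salviolone mouse, and the log2 fold change was 1.55 ± 0.19 (adjusted p = 1.56e-05, edgeR quasi-likelihood). Adora2a, an adenosine receptor of the same neurons, was at 118, 96.8, 86.3, 130.4 and 130.1 CPM in combination mice, against 34.7, 44.8, 39.02, 47.5 and 50.7 CPM in salviolone mice. Every combination mouse exceeded every salviolone mouse (log2 fold change 1.37 ± 0.17, adjusted p = 1.41e-05, edgeR). Drd2, the D2 dopamine receptor, rose, with a log2 fold change of 1.24 ± 0.19.

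Genes of both striatal output pathways and of their shared signalling moved. Tac1, the substance P precursor, and Pdyn, the dynorphin precursor, mark direct-pathway neurons and rose, with log2 fold changes of 1.30 ± 0.19 and 0.81 ± 0.11. Drd1, the D1 receptor of the same neurons, was not called: it stood at 21.6, 33.3, 30.6, 97.8 and 28.3 CPM in combination mice, against 34.2, 38.5, 11.7, 38.6 and 35.5 CPM in salviolone mice, so that the groups overlapped and combination mouse 4 stood far above the rest. Adcy5, the main striatal adenylyl cyclase, was at 726, 638, 570.0, 809.7 and 814 CPM in combination mice, against 325, 395, 372, 367 and 387 CPM in salviolone mice. Its groups did not overlap (log2 fold change 0.95 ± 0.11, adjusted p = 8.53e-06, edgeR). Ppp1r1b, the DARPP-32 phosphatase regulator, and the phosphodiesterases Pde1b and Pde10a rose, with log2 fold changes of 1.01 ± 0.13, 0.80 ± 0.11 and 1.04 ± 0.17. Rgs9, which shortens G protein signals in these cells, rose, with a log2 fold change of 0.96 ± 0.16, and the orphan receptor Gpr6 with 1.16 ± 0.19. The other 2 members without a call were Gng7 and Foxp1. Without the 3 deepest combination libraries, 20 of the 24 were called higher.

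Several of the genes with the smallest p are known from striatal neurons, and of these Actn2 is also in the striatal list. Gnal, the G protein alpha subunit that couples dopamine and adenosine receptors to adenylyl cyclase, was at 427 ± 38.9 CPM with the combination and 239 ± 23.6 CPM with salviolone (log2 fold change 0.84 ± 0.09, adjusted p = 5.53e-06, edgeR). Rasgrp2, a calcium-regulated exchange factor for Rap1, was at 85.8 ± 12.7 CPM with the combination and 43.9 ± 4.35 CPM with salviolone (log2 fold change 0.97 ± 0.11). Sv2c, a synaptic vesicle protein abundant in the basal ganglia, was at 202 ± 23.4 CPM with the combination and 112 ± 11.1 CPM with salviolone (log2 fold change 0.84 ± 0.10). Actn2, an actin crosslinker at synapses, had 51.5 ± 5.28 CPM with the combination and 23.4 ± 2.59 CPM with salviolone, and Bcr, a regulator of small GTPases, 337 ± 36.0 CPM with the combination and 212 ± 7.32 CPM with salviolone. Tacr1, the substance P receptor, stood at 21.8, 16.8, 16.0, 22.99 and 16.4 CPM in combination mice, against 3.59, 6.43, 4.26, 5.23 and 4.13 CPM in salviolone mice. All combination mice lay above all salviolone mice (log2 fold change 1.99 ± 0.23, adjusted p = 6.6e-06, edgeR).

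Factors of the ventral forebrain rose while nuclear factor I genes fell. Among 27 genes of this list, 12 rose (44.4%, against 9.66% of all tested genes), 5 fell (18.5%, against 8.23%) and 10 were not called. Those that fell include the markers Nfix and Nrep, and Nrep is not a nuclear factor I gene. The MEIS gene Meis1 was at 12.9, 13.8, 15.7, 13.03 and 15.7 CPM in combination mice, against 5.60, 4.92, 4.13, 6.10 and 5.87 CPM in salviolone mice, with groups apart (log2 fold change 1.42 ± 0.19, adjusted p = 1.64e-05, edgeR). Pbx3, a MEIS partner, rose, with a log2 fold change of 0.94 ± 0.17, and the striatal factors Six3 and Sp9 with 1.02 ± 0.23 and 1.04 ± 0.17. Dlx5 and Dlx6, homeobox genes of GABA neurons, rose, with log2 fold changes of 0.71 ± 0.16 and 0.90 ± 0.14, while Dlx1 and Dlx2 had 0.06 and 0.33 and were not called. Of the nuclear factor I genes, Nfic and Nfib fell along with Nfix, with log2 fold changes of -0.60 ± 0.11 and -0.31 ± 0.07, and Nfia had -0.25 and was not called. Etv1, a factor of cortical layer 5 and of interneurons, fell, with a log2 fold change of -0.44 ± 0.10.

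Genes of the hypothalamus and basal forebrain had the highest median log2 fold change of the 45 lists, 2.89. Of 24 members 19 rose (79.2%, against 9.66% of all tested genes), 1 fell (4.17%, against 8.23%) and 4 were not called. Magel2, an imprinted gene of hypothalamic neurons, stood at 10.9, 13.01, 8.82, 20.4 and 18.01 CPM in combination mice, against 0.881, 0.569, 1.14, 0.750 and 1.12 CPM in salviolone mice. The groups were far apart (log2 fold change 3.99 ± 0.48, adjusted p = 1.24e-05, edgeR quasi-likelihood). Baiap3, a vesicle priming factor of neuroendocrine cells, was at 102, 123, 81.9, 157 and 131 CPM in combination mice, against 8.81, 6.03, 5.18, 9.33 and 5.60 CPM in salviolone mice. It too was higher in every combination mouse than in any salviolone mouse (log2 fold change 4.09 ± 0.62). Hap1, the huntingtin-associated protein, was at 209, 213, 171, 231 and 199.6 CPM in combination mice, against 47.8, 38.1, 44.5, 43.5 and 40.9 CPM in salviolone mice, and Zcchc12 rose, with a log2 fold change of 2.29 ± 0.33. Some peptide genes of the lateral and paraventricular hypothalamus had few counts with salviolone. The peptide genes Trh and Avp totalled 999 and 706 counts over the salviolone mice, and 6129 and 8096 over the combination mice. Pmch, the melanin-concentrating hormone precursor, had 8, 319, 1286, 2224 and 2922 raw counts in combination mice, against 12, 24, 0, 0 and 0 in salviolone mice. Combination mouse 1 lay within the salviolone range. Hcrt, the orexin precursor, had 0, 66, 384, 2150 and 2896 counts in combination mice, against 8, 12, 8, 37 and 5 in salviolone mice, with none in combination mouse 1. Otp and Sim1, factors of the paraventricular nucleus, totalled 1775 and 714 counts over the combination mice and 28 and 21 over the salviolone mice. Ghrh had no count in any salviolone mouse and 85 counts in all over the combination mice. Npy, also a peptide of cortical interneurons, fell, with a log2 fold change of -0.49 ± 0.14. Avp, Pomc, Agrp and Nnat were not called.

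Cortical layer genes fell in their majority. Of 27 tested, 16 fell (59.3%, against 8.23% of all tested genes), 4 rose (14.8%, against 9.66%) and 7 were not called. The median log2 fold change was -0.56. Tbr1, a layer 6 factor, was at 86.7, 96.1, 97.6, 72.1 and 76.4 CPM in combination mice, against 134, 145, 142, 140.5 and 136 CPM in salviolone mice, with groups apart (log2 fold change -0.70 ± 0.11, adjusted p = 0.000105, edgeR). Fezf2, of layer 5, fell, with a log2 fold change of -1.19 ± 0.17, the layer 4 genes Rorb and Scnn1a with -0.62 ± 0.20 and -1.23 ± 0.17, and the upper-layer factor Cux2 with -0.50 ± 0.13. The neuronal bHLH genes Neurod2 and Neurod6 fell, with log2 fold changes of -0.57 ± 0.11 and -1.06 ± 0.17, and Mef2c with -0.74 ± 0.15. The 4 members that rose were Lmo3, Otof, Calb1 and Bcl11b, and Bcl11b and Calb1 are also striatal genes. Otof stood at 130.4, 91.5, 112, 116 and 87.5 CPM in combination mice, against 14.9, 26.6, 23.9, 26.2 and 28.0 CPM in salviolone mice, higher in each combination mouse than in any salviolone mouse. Satb1, a chromatin organiser that was named by its p, was at 78.9 ± 12.2 CPM with the combination and 164 ± 9.53 CPM with salviolone (log2 fold change -1.05 ± 0.13, adjusted p = 1.41e-05, edgeR). Without the 3 deepest combination libraries 8 members were called lower and 4 higher.

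**Figure D3:**
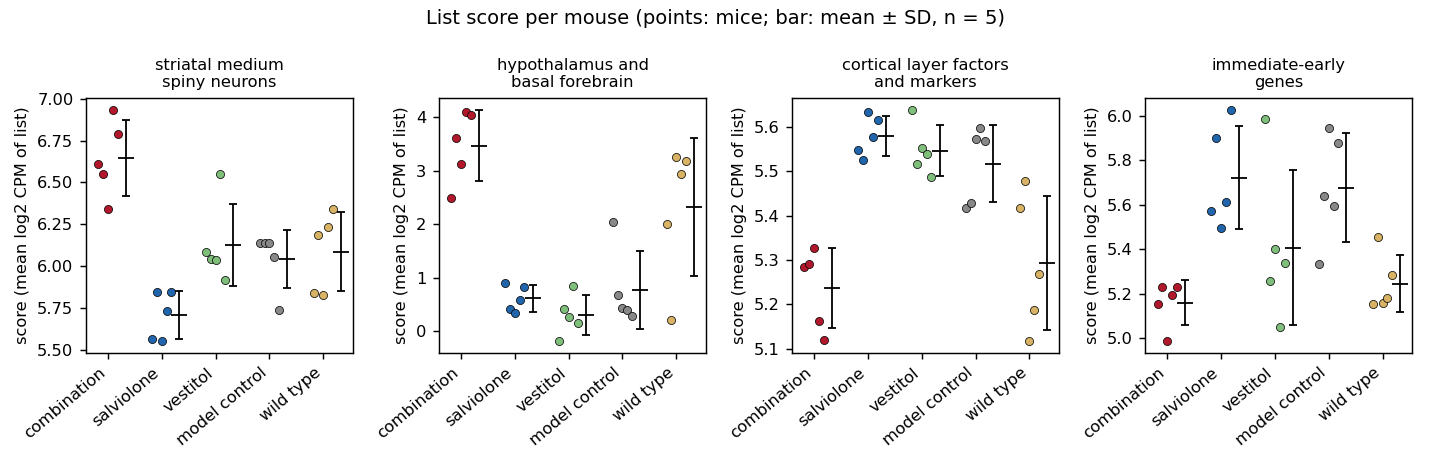
Mean log2 CPM of 4 gene lists in each mouse (points), with the mean ± SD of the 5 mice of each group. Combination and salviolone mice do not overlap in any of the 4 lists, and 4 of 5 wild type mice are also high for the hypothalamus list.

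The promoters of 3 genes of these lists are shown, each with a MEIS motif, and whether MEIS proteins act on them was not tested. Of these, Six3 and Pdyn rose and Tbr1 fell. Each is a 300-base window around the start of transcription from RefSeq (GRCm38.p6, a build other than that of the deposited tables), read 5′ to 3′, with the MEIS motif TGACAG or its reverse complement CTGTCA in capitals.
Six3, chr17:85620584-85620883, plus strand: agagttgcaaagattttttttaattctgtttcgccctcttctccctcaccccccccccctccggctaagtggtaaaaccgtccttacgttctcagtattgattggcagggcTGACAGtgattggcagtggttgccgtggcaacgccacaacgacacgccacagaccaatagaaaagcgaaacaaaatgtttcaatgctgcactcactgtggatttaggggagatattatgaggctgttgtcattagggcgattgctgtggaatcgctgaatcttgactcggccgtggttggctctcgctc
Pdyn, chr2:129698609-129698908, minus strand: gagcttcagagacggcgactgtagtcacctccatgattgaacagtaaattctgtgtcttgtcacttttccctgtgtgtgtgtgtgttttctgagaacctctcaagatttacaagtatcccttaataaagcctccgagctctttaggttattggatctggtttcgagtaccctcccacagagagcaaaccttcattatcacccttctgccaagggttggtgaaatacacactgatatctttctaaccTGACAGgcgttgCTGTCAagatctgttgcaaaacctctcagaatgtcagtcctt
Tbr1, chr2:61804203-61804502, plus strand: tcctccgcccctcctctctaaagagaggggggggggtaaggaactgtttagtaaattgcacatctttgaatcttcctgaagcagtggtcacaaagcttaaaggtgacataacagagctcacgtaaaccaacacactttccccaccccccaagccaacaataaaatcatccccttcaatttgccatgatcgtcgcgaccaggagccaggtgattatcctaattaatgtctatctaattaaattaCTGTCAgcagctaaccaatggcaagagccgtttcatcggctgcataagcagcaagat
The motif was searched on both strands, and 20.2% of the 12886 tested genes with a promoter in the table hold it. It was present in 5 of the 16 striatal genes called higher that have a promoter (31.2%) and in 4 of 17 such hypothalamus genes (23.5%). Of genes called lower, 5 of 12 cortical layer (41.7%) and 3 of 11 immediate-early genes (27.3%) held it. So did 1 of 8 clock genes called lower (12.5%) and 0 of 7 glucocorticoid-responsive genes called lower. In Pdyn 2 matches lie close together on opposite strands, and Six3 and Tbr1 have 1 each. A match describes these letters in this window and does not show binding.

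GABA neuron genes moved in both directions. Of 25 inhibitory neuron genes 12 rose (48%, against 9.66% of all tested genes), 6 fell (24%, against 8.23%) and 7 were not called. Gad2, one of the enzymes of GABA synthesis, stood at 318, 315, 315, 415 and 377 CPM in combination mice, against 188, 194, 178, 192 and 198 CPM in salviolone mice. The groups were apart in all 10 mice (log2 fold change 0.87 ± 0.10, adjusted p = 6.6e-06, edgeR). Slc32a1, the vesicular GABA transporter, was at 177 ± 21.8 CPM with the combination and 113 ± 3.74 CPM with salviolone (log2 fold change 0.65 ± 0.09). Gad1 rose, with a log2 fold change of 0.26 ± 0.07. With the hypothalamus, striatum, thalamus and choroid plexus scores together as covariates, Slc32a1 had -0.04. Markers of separate interneuron classes went opposite ways. Sst, somatostatin, stood at 116, 108, 93.6, 100.4 and 110.3 CPM in combination mice, against 79.7, 73.2, 81.6, 69.5 and 81.9 CPM in salviolone mice, higher in each combination mouse (log2 fold change 0.45 ± 0.09). Pvalb, parvalbumin, was at 28.0, 48.4, 52.4, 39.8 and 49.6 CPM in combination mice, against 107, 77.4, 74.5, 93.2 and 84.0 CPM in salviolone mice, lower in each combination mouse (log2 fold change -0.997 ± 0.24). Vip, the peptide of another class, was at 10.3, 11.3, 12.6, 8.80 and 11.8 CPM in combination mice, against 18.3, 19.2, 19.4, 18.8 and 18.01 CPM in salviolone mice, also without overlap (log2 fold change -0.77 ± 0.10, adjusted p = 1.78e-05, edgeR). Nos1, neuronal nitric oxide synthase, was at 162 ± 5.52 CPM with the combination and 34.5 ± 10.6 CPM with salviolone. Lamp5 fell, with a log2 fold change of -1.15 ± 0.18, and Cck with -0.47 ± 0.12. Nkx2-1, a ventral forebrain and hypothalamus factor, rose, with a log2 fold change of 2.63 ± 0.42.

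Cholinergic neuron genes rose and several acetylcholine receptor genes fell. In the list of 20, 8 rose (40%, against 9.66% of all tested genes), 4 fell (20%, against 8.23%) and 8 were not called. Chat, the enzyme that makes acetylcholine, stood at 18.9, 12.6, 12.3, 21.4 and 19.0 CPM in combination mice, against 3.15, 5.18, 3.24, 5.01 and 3.99 CPM in salviolone mice. No salviolone mouse reached the lowest combination mouse (log2 fold change 2.03 ± 0.25, adjusted p = 1.18e-05, edgeR). The choline transporter Slc5a7 and the vesicular transporter Slc18a3 rose, with log2 fold changes of 1.98 ± 0.29 and 1.91 ± 0.32. Ngfr, a neurotrophin receptor, rose, with a log2 fold change of 2.42 ± 0.43. Ache, which degrades acetylcholine, stood at 73.8, 58.9, 62.7, 90.1 and 84.3 CPM in combination mice, against 41.3, 39.3, 44.8, 43.2 and 44.7 CPM in salviolone mice, with groups apart (log2 fold change 0.79 ± 0.10, adjusted p = 1.58e-05, edgeR). The muscarinic receptor gene Chrm3 and the nicotinic subunits Chrna4, Chrna5 and Chrnb3 fell, with log2 fold changes of -0.70 ± 0.14, -0.48 ± 0.12, -1.32 ± 0.31 and -2.12 ± 0.41. Chrna7 rose, with a log2 fold change of 0.32 ± 0.09. Chrm1, Chrm2 and Chrm4 were not called, with log2 fold changes of 0.11, -0.10 and -0.10.

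Immediate-early genes fell. Of 30 tested, 15 fell (50%, against 8.23% of all tested genes), 1 rose (3.33%, against 9.66%) and 14 were not called. The median log2 fold change was -0.58. The groups did not overlap in any of the 16 called, against 74.5% of all called genes. Arc, which acts in synaptic plasticity, stood at 169.7, 227, 154, 205 and 212 CPM in combination mice, against 516, 619, 420.2, 433 and 610.1 CPM in salviolone mice. The highest combination mouse had 227 CPM and the lowest salviolone mouse 420.2 CPM (log2 fold change -1.42 ± 0.33, adjusted p = 0.00436, edgeR). Fos, an AP-1 subunit, was at 28.9, 35.5, 22.1, 29.6 and 33.3 CPM in combination mice, against 62.2, 87.6, 56.7, 50.0 and 89.7 CPM in salviolone mice, with groups apart (log2 fold change -1.21 ± 0.28, adjusted p = 0.00420, edgeR). Egr1, a zinc finger activity factor, was at 277 ± 24.0 CPM with the combination and 508 ± 85.5 CPM with salviolone (log2 fold change -0.87 ± 0.18), and Egr3 fell, with a log2 fold change of -0.75 ± 0.15. Npas4, which is induced by calcium entry, was at 34.4 ± 6.03 CPM with the combination and 67.2 ± 14.9 CPM with salviolone (log2 fold change -0.97 ± 0.19), and the nuclear receptor Nr4a1 at 102 ± 15.05 CPM with the combination and 225 ± 47.8 CPM with salviolone (log2 fold change -1.14 ± 0.22). Junb and Ier2 fell, with log2 fold changes of -0.96 ± 0.21 and -1.44 ± 0.24. The 1 that rose was Jun, at 58.9, 58.1, 50.8, 53.9 and 59.8 CPM in combination mice, against 36.2, 49.4, 32.7, 37.2 and 37.8 CPM in salviolone mice, with the lowest combination mouse just above the highest salviolone mouse (log2 fold change 0.54 ± 0.14, adjusted p = 0.00728, edgeR). Bdnf, the neurotrophin, fell, with a log2 fold change of -0.32 ± 0.11, while Nr4a2, Nptx2 and Jund had 0.39, 0.09 and 0.04 and were not called. On leaving out each mouse in turn 12 to 15 members were called lower, and 8 without the 3 deepest combination libraries.

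**Figure D4:**
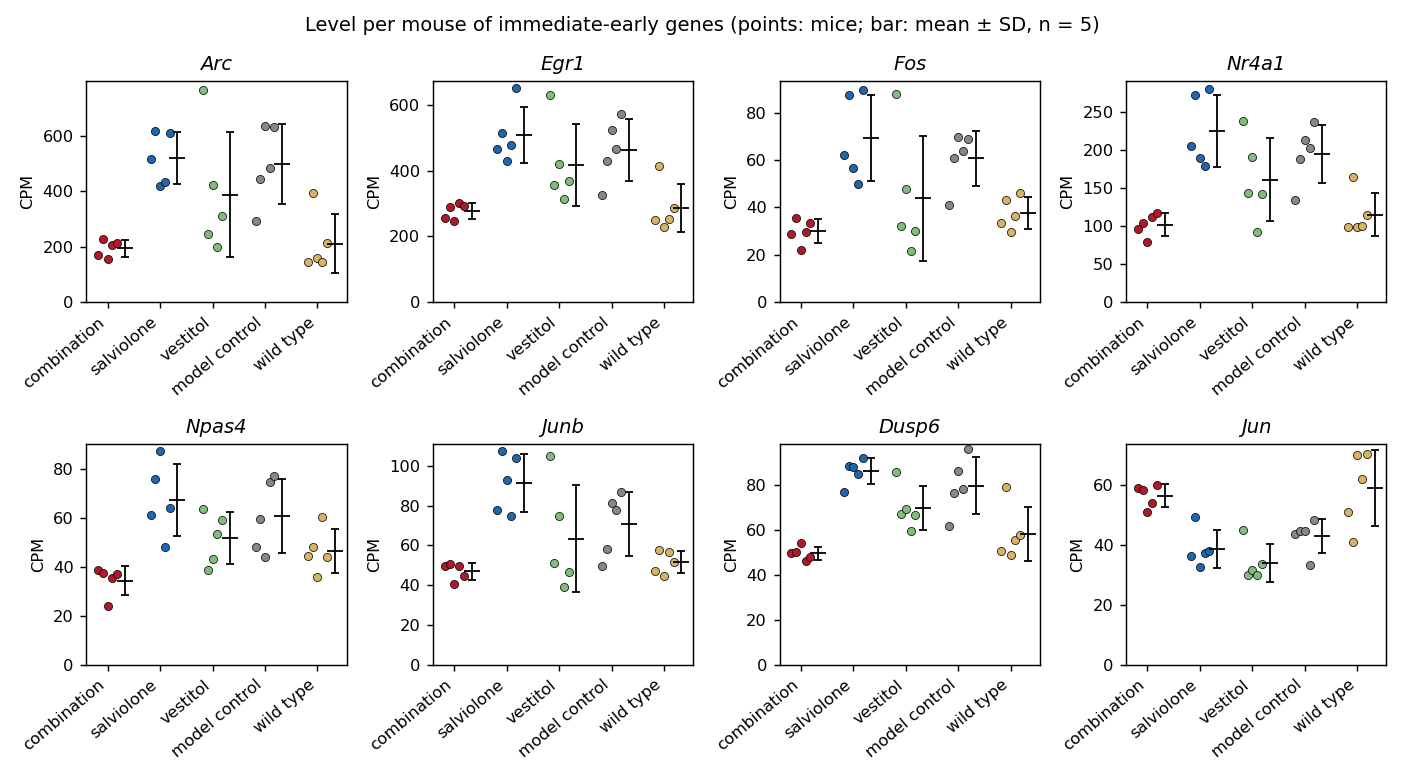
CPM of 8 immediate-early genes in each mouse (points), with the mean ± SD of the 5 mice of each group. In 7 of the 8 genes every combination mouse is below every salviolone mouse, and in Jun every one is above, while vestitol mice spread widely.

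Feedback genes of growth factor signalling fell as well, and Dusp5, Dusp6 and Bdnf are in this list and the one above. In this list of 24, 10 fell (41.7%, against 8.23% of all tested genes), 1 rose (4.17%, against 9.66%) and 13 were not called. The phosphatases Dusp6, Dusp5 and Dusp7, which switch off MAP kinases, fell, with log2 fold changes of -0.80 ± 0.12, -0.95 ± 0.18 and -0.33 ± 0.08. Dusp6 stood at 49.6, 50.0, 54.1, 46.2 and 47.8 CPM in combination mice, against 76.8, 88.4, 87.8, 84.8 and 92.1 CPM in salviolone mice, with groups far apart relative to their spread (adjusted p = 5.43e-05, edgeR). Etv5, an ETS factor downstream of ERK, and the inhibitor Spry4 fell, with log2 fold changes of -0.54 ± 0.09 and -0.43 ± 0.11. The single rise was lost without salviolone mouse 1 or combination mouse 5.

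Glucocorticoid-responsive and clock genes fell in part. Of 23 glucocorticoid-responsive genes 9 fell (39.1%, against 8.23% of all tested genes), 1 rose (4.35%, against 9.66%) and 13 were not called. Nr3c1, the glucocorticoid receptor itself, stood at 88.3, 98.7, 97.4, 89.0 and 97.7 CPM in combination mice, against 138, 126, 134, 126 and 121 CPM in salviolone mice, without overlap (log2 fold change -0.45 ± 0.07, adjusted p = 0.00011, edgeR). Its target genes Tsc22d3, Klf9, Sgk1 and Zbtb16 fell, with log2 fold changes of -0.57 ± 0.13, -0.41 ± 0.09, -0.67 ± 0.22 and -1.03 ± 0.23. Fkbp5, another target and a feedback inhibitor of the receptor, rose, with a log2 fold change of 0.30 ± 0.09, a call that was lost without salviolone mouse 4, combination mouse 2 or combination mouse 3. Of 23 clock genes 9 fell (39.1%) and 14 were not called, and 5 fell without combination mouse 1, 4 or 5. Hlf, a clock output factor, was at 208, 229, 249.6, 188 and 208 CPM in combination mice, against 408, 423, 388, 408 and 397 CPM in salviolone mice, with groups apart (log2 fold change -0.90 ± 0.13, adjusted p = 6.34e-05, edgeR). Per1 and Per3, and the repressors Nr1d1 and Nr1d2, fell, with log2 fold changes of -0.51 ± 0.16, -0.40 ± 0.10, -0.46 ± 0.15 and -0.37 ± 0.11. The core genes Clock, Arntl, Cry1 and Per2 had 0.07, 0.10, -0.13 and -0.20 and were not called.

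The Dusp1 promoter is shown because Dusp1 is both an immediate-early and a glucocorticoid-responsive gene of the lists above, and fell, with a log2 fold change of -0.90 ± 0.17. Its level was 32.95, 41.1, 29.4, 31.7 and 33.1 CPM in combination mice, against 61.7, 77.1, 55.4, 53.3 and 67.0 CPM in salviolone mice, without overlap. The capitals mark the cyclic AMP response element TGACGTCA, to which CREB binds.
Dusp1, chr17:26508423-26508722, minus strand: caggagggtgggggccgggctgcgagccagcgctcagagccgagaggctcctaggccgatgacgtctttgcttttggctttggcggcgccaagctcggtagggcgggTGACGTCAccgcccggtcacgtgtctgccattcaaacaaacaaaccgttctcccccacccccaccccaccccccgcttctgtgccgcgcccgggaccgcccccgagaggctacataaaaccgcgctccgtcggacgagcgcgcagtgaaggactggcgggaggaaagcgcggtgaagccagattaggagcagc
This element is the same on both strands and was found in 3.14% of the 12886 tested genes with a promoter. It was found in 1 of 11 immediate-early genes called lower and in 3 of 7 glucocorticoid-responsive genes called lower. The window of Dusp1 also holds the letters CACGTG of an E-box, a motif found in 10.8% of the tested genes with a promoter.

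Synaptic genes moved in both directions. In the list of vesicle and release genes, 12 fell (41.4%, against 8.23% of all tested genes), 3 rose (10.3%, against 9.66%) and 14 of 29 were not called. Without combination mouse 4 or 5, 7 fell. Snap25, a SNARE protein of fusion, stood at 1103, 1255, 1269.5, 1086 and 1155 CPM in combination mice, against 1809, 1701, 1726, 1685 and 1615 CPM in salviolone mice. No combination mouse reached the lowest salviolone mouse (log2 fold change -0.54 ± 0.09, adjusted p = 0.000214, edgeR). Cplx1, Syt2 and Vamp1, release genes of fast-firing neurons, fell, with log2 fold changes of -0.55 ± 0.10, -0.66 ± 0.16 and -0.58 ± 0.13, and Slc17a7 with -0.30 ± 0.09. Cplx2 and Syn2 rose, with log2 fold changes of 0.25 ± 0.05 and 0.46 ± 0.09, and Sv2c is the other member that rose. Glutamate receptor genes gave 9 higher (37.5%), 3 lower (12.5%) and 12 not called. Grin2a, an NMDA receptor subunit of mature synapses, was at 250.2 ± 29.0 CPM with the combination and 381 ± 31.2 CPM with salviolone (log2 fold change -0.61 ± 0.10), and Grm2 fell, with a log2 fold change of -0.79 ± 0.15. Grin3a, Grm5 and Gria1 rose, with log2 fold changes of 0.89 ± 0.16, 0.36 ± 0.09 and 0.47 ± 0.14. Among 26 postsynaptic genes, 6 rose (23.1%) and 5 fell (19.2%), and 3 rose without salviolone mouse 1 or combination mouse 1. Camk2d rose, with a log2 fold change of 1.17 ± 0.23, and Camk2g fell, with a log2 fold change of -0.67 ± 0.10, while Camk2a had -0.14 and was not called. GABA-A receptor subunits gave 4 higher (28.6%) and 3 lower (21.4%) of 14. Gabrg1 was one that rose, with a log2 fold change of 1.06 ± 0.18.

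Ion channel genes also moved both ways. Of 36 calcium channel and store genes 9 rose (25%, against 9.66% of all tested genes), 8 fell (22.2%, against 8.23%) and 19 were not called. Without combination mouse 1, 5 fell. Ryr3, a calcium release channel, stood at 192, 170.0, 155, 192 and 193 CPM in combination mice, against 85.9, 95.5, 90.5, 104 and 98.0 CPM in salviolone mice, with groups apart (log2 fold change 0.93 ± 0.11, adjusted p = 8.02e-06, edgeR). Its relative Ryr2 fell, with a log2 fold change of -0.30 ± 0.07. Cacna1h and Cacna2d2 rose, with log2 fold changes of 0.62 ± 0.09 and 0.82 ± 0.12, and Cacna1a, the P/Q-type channel, fell, with a log2 fold change of -0.40 ± 0.08. Of 32 voltage-gated potassium channel genes 6 rose (18.75%) and 9 fell (28.1%). Kcna5 and Kcng1 rose, with log2 fold changes of 1.205 ± 0.18 and 1.10 ± 0.18, and the channels of fast-spiking and axonal membranes Kcna1 and Kcna2 fell, with log2 fold changes of -0.61 ± 0.12 and -0.49 ± 0.10. Kcnk4, a two-pore potassium channel named by its p, was at 8.73, 11.5, 12.8, 9.42 and 11.5 CPM in combination mice, against 22.0, 22.1, 26.8, 26.4 and 22.9 CPM in salviolone mice, with groups apart (log2 fold change -1.15 ± 0.14, adjusted p = 6.6e-06, edgeR). Of 20 neurofilament and cytoskeleton genes 3 rose (15%, against 9.66% of all tested genes), 5 fell (25%, against 8.23%) and 12 were not called. The neurofilament genes Nefl, Nefm and Nefh fell, with log2 fold changes of -0.34 ± 0.05, -0.42 ± 0.11 and -0.59 ± 0.18. Gap43, a growth cone gene, rose to 205 ± 15.2 CPM with the combination and 101 ± 9.60 CPM with salviolone (log2 fold change 1.02 ± 0.14).

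Of 28 tested genes of amyloid handling 3 rose (10.7%, against 9.66% of all tested genes), 4 fell (14.3%, against 8.23%) and 21 were not called. The neprilysin gene Mme, whose product degrades amyloid peptide, stood at 11.2, 8.11, 10.5, 9.58 and 6.55 CPM in combination mice, against 4.10, 5.00, 4.26, 3.70 and 3.03 CPM in salviolone mice, without overlap (log2 fold change 1.19 ± 0.22, adjusted p = 0.000488, edgeR). Ece2, an endothelin-converting enzyme that also cleaves the peptide, was at 61.0, 61.4, 61.9, 77.6 and 69.8 CPM in combination mice, against 30.9, 23.5, 31.6, 37.0 and 23.4 CPM in salviolone mice, likewise apart (log2 fold change 1.18 ± 0.20, adjusted p = 0.000226, edgeR). Sorl1, a sorting receptor of the precursor protein, was at 529.5 ± 64.9 CPM with the combination and 773 ± 22.6 CPM with salviolone (log2 fold change -0.55 ± 0.10), and Ide, the insulin-degrading enzyme, fell, with a log2 fold change of -0.20 ± 0.05. The secretase genes Bace1, Adam10, Psen2, Ncstn and Aph1a had log2 fold changes of -0.14 to 0.02, and Apoe and Clu had -0.02 and 0.09, none of them called. In the tau list 2 rose (7.41%) and 3 fell (11.1%) of 27, near the shares over all tested genes. The list had 1 higher without salviolone mouse 1 or combination mouse 2 and 5 lower without salviolone mouse 2. Mapk3, which encodes the kinase ERK1, rose, with a log2 fold change of 0.72 ± 0.11, and the tau gene Mapt had -0.04 and was not called.

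In each of 4 immune lists more members fell than rose, but only 10% to 20% of members fell, against 8.23% of all tested genes. The homeostatic microglia list gave 1 higher and 1 lower of 17 (5.88% each), with a median log2 fold change of 0.04. It gave 1 to 2 higher on leaving out each mouse. Of 30 genes of plaque-associated microglia 3 fell (10%, against 8.23% of all tested genes), 1 rose and 26 were not called, with a median log2 fold change of -0.25. Trem2, a lipid receptor, stood at 20.03, 12.6, 23.2, 24.2 and 19.4 CPM in combination mice, against 20.6, 26.0, 30.1, 29.2 and 19.8 CPM in salviolone mice, with overlapping groups. Cst7 was at 9.14, 3.42, 13.3, 17.6 and 11.4 CPM in combination mice, against 13.1, 20.4, 16.8, 17.7 and 10.1 CPM in salviolone mice, also overlapping. Ctsb, a lysosomal protease, fell, with a log2 fold change of -0.24 ± 0.06, and Lpl rose, with a log2 fold change of 0.64 ± 0.17. Among complement genes 4 of 20 fell (20%) and 16 were not called, and 2 fell without combination mouse 1. C1ra, a protease of the first complement complex, was at 2.01, 1.99, 3.38, 2.15 and 3.45 CPM in combination mice, against 7.75, 10.8, 10.5, 7.23 and 7.86 CPM in salviolone mice. Every combination mouse lay below every salviolone mouse (log2 fold change -1.76 ± 0.33, adjusted p = 0.000478, edgeR). C1s1 and C4b fell, with log2 fold changes of -1.06 ± 0.31 and -0.43 ± 0.15, while C1qa, C1qb and C1qc had -0.16, -0.03 and -0.03 and were not called. H2-T23, a nonclassical MHC gene, was at 12.0, 13.5, 18.1, 19.5 and 16.7 CPM in combination mice, against 30.2, 24.6, 31.3, 34.2 and 22.4 CPM in salviolone mice, without overlap (log2 fold change -0.84 ± 0.14, adjusted p = 0.000213, edgeR). In all, 2 of 20 antigen presentation genes fell (10%), with 1 without salviolone mouse 4 or 5 or combination mouse 1 or 2. Of 24 interferon-response genes 3 fell (12.5%) and 21 were not called. Of these genes, 1 fell without salviolone mouse 3, combination mouse 1 or combination mouse 2, and 5 without combination mouse 3.

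Astrocyte and oligodendrocyte precursor genes rose in part, and myelin genes fell in part. Of 20 astrocyte genes 4 rose (20%, against 9.66% of all tested genes), and 16 were not called, with 2 higher without combination mouse 1. The bicarbonate transporter gene Slc4a4 and the water channel gene Aqp4 rose, with log2 fold changes of 0.33 ± 0.07 and 0.28 ± 0.09. Gfap, of reactive astrocytes, was at 443 ± 76.8 CPM with the combination and 546 ± 47.9 CPM with salviolone and was not called. Of 17 oligodendrocyte precursor genes 5 rose (29.4%) and 1 fell (5.88%, against 8.23% of all tested genes). Pdgfra, the growth factor receptor of these cells, and Cacng4 rose, with log2 fold changes of 0.50 ± 0.10 and 0.94 ± 0.12. Of 20 myelin genes 3 fell (15%) and 17 were not called, with all 20 log2 fold changes below 0 and a median of -0.35. Myelin basic protein, Mbp, stood at 711, 791, 913, 911 and 1006 CPM in combination mice, against 1288, 1220.5, 959, 982 and 1089.6 CPM in salviolone mice, with 1 combination mouse inside the salviolone range. The number of myelin genes that fell was 0 without salviolone mouse 1 or combination mouse 1, 1 without salviolone mouse 2 or 5 or combination mouse 2 or 4, and 5 without combination mouse 5. Endothelium and pericyte lists gave 1 higher of 20 (5%) and 1 higher of 15 (6.67%), under the share over all tested genes. Without salviolone mouse 1 the endothelium list gave 0 higher and 1 lower.

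Lists of neighbouring tissues beyond the striatum and hypothalamus gave mixed values. Of 19 hippocampus genes 7 rose (36.8%, against 9.66% of all tested genes) and 12 were not called, with a median log2 fold change of 0.60. Wfs1, also a gene of striatal and amygdala neurons, was at 217, 214, 166, 229.8 and 195 CPM in combination mice, against 76.6, 77.1, 75.1, 69.4 and 86.8 CPM in salviolone mice, with groups apart (log2 fold change 1.41 ± 0.19), and the granule cell gene Prox1 had -0.29 and was not called. Of 16 thalamus genes 1 rose and 1 fell (6.25% each, against 9.66% and 8.23% of all tested genes), with 2 lower without combination mouse 3. Choroid plexus genes gave 2 higher of 18 (11.1%), near the share over all tested genes. Ttr, the carrier that defines this tissue, stood at 50.2, 6.15, 0.471, 3.66 and 6.06 CPM in combination mice, against 199.9, 7.71, 3.26, 9.51 and 21.7 CPM in salviolone mice, with a single high value in salviolone mouse 1. The median log2 fold change of the choroid plexus list was -0.34, and 0.31 without that mouse. No blood cell gene (12 tested) or meningeal gene (17 tested) was called by edgeR, with 2 each at an unadjusted p under 0.05, 1 and 2 called lower by DESeq2, and 0 each by limma-voom. Without salviolone mouse 1, 2 meningeal genes fell, and without salviolone mouse 2, 1 rose.

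Autophagy and lysosome genes fell in part, and the share of ribosomal protein genes that rose was near that over all tested genes. Of 50 cytosolic ribosomal protein genes 6 rose (12%, against 9.66% of all tested genes), with log2 fold changes of 0.16 to 0.21, and 44 were not called, and 1 rose without combination mouse 4 and 3 without combination mouse 1 or 5. Of 35 autophagy and lysosome genes 9 fell (25.7%, against 8.23% of all tested genes), with log2 fold changes of -0.40 to -0.16, and 5 fell without salviolone mouse 4. Mitochondrially encoded genes (13) had no call by edgeR, DESeq2 or limma-voom, with 1 at an unadjusted p under 0.05. Proteasome genes (31) had no call by edgeR or DESeq2 and 1 by limma-voom, with 4 at an unadjusted p under 0.05. Of 25 cholesterol genes 1 rose (4%) and 2 fell (8%), and 22 were not called, with 2 higher without salviolone mouse 2 or combination mouse 5. Of 24 antioxidant genes 2 rose (8.33%), 1 fell (4.17%) and 21 were not called, neither share above that over all tested genes. Sod1 rose, with a log2 fold change of 0.17 ± 0.05, and Sod2 fell, with a log2 fold change of -0.20 ± 0.06. Without salviolone mouse 2 or 5 or combination mouse 4 or 5, 1 antioxidant gene rose in place of 2. Of 25 unfolded protein response genes 3 fell (12%, against 8.23% of all tested genes) and 22 were not called. The median log2 fold change of this list was -0.007. Its factors Atf4 and Atf6 fell, with log2 fold changes of -0.35 ± 0.08 and -0.49 ± 0.09.

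**Figure D5:**
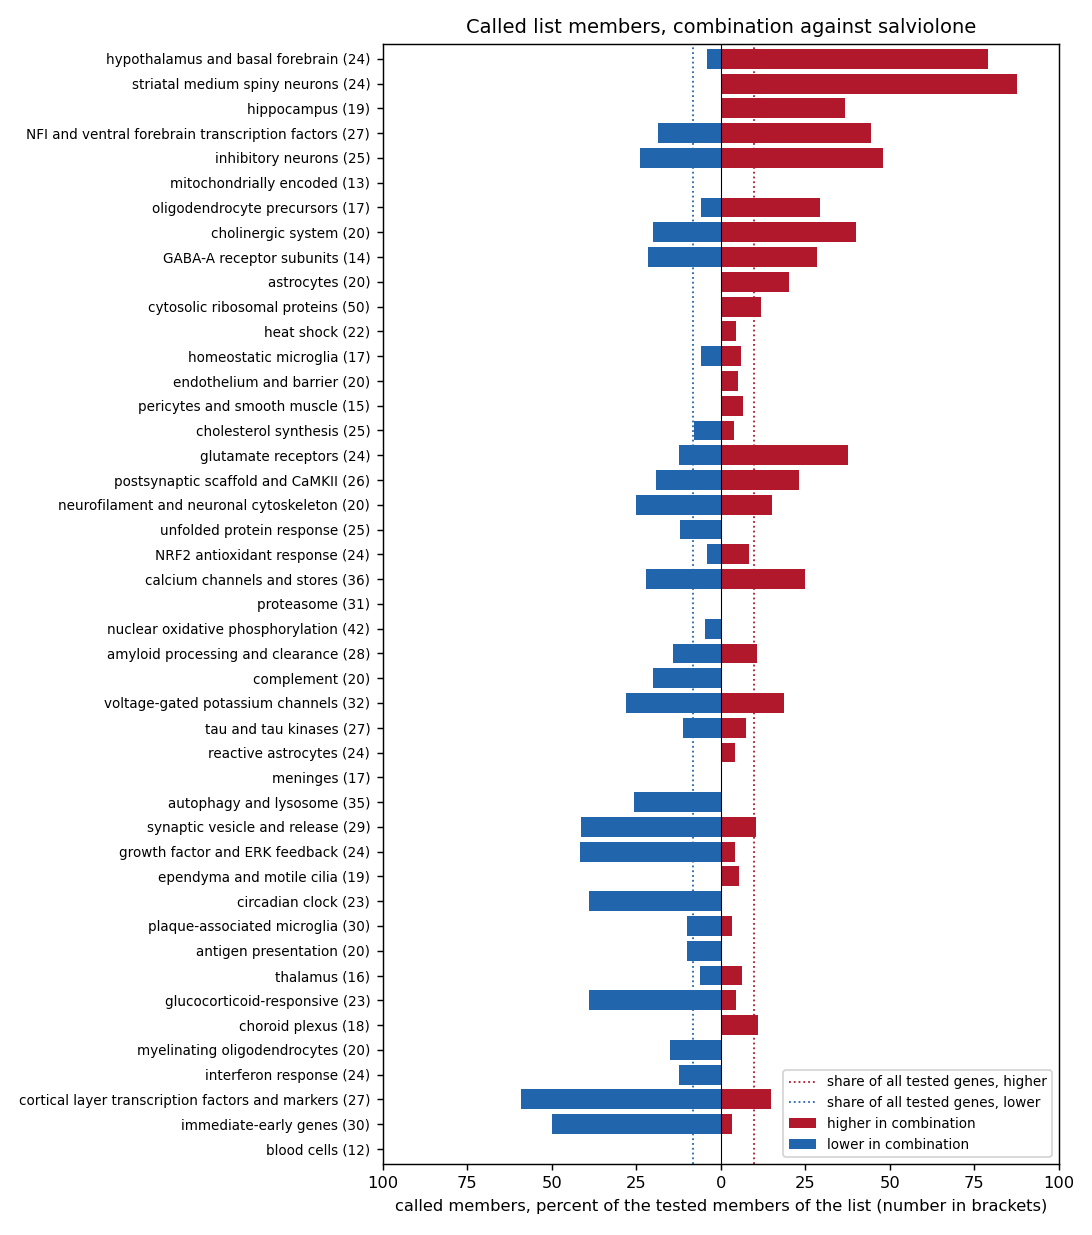
Called members of each of the 45 gene lists, as a percentage of the tested members (number in brackets), higher with the combination to the right and lower to the left, with dotted lines at the shares over all tested genes (9.66% and 8.23%). Lists run from the highest median log2 fold change at the top to the lowest at the bottom.

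Further genes with the smallest p in each direction were named without regard to any list. Vat1, a vesicle amine transport protein, stood at 74.1, 84.1, 68.0, 98.1 and 93.6 CPM in combination mice, against 36.2, 39.98, 39.1, 40.4 and 37.0 CPM in salviolone mice, with groups apart (log2 fold change 1.12 ± 0.12, adjusted p = 5.05e-06, edgeR). It was at 39.1 ± 4.02 CPM with vestitol and 42.3 ± 5.39 CPM in the model control. Asic4, of the acid-sensing channel family, was at 38.0 ± 4.77 CPM with the combination and 18.2 ± 1.95 CPM with salviolone and Plppr1, a phospholipid phosphatase-related gene, at 24.4 ± 3.94 CPM with the combination and 10.4 ± 0.890 CPM with salviolone. Tbc1d16, a Rab GTPase activator, had a log2 fold change of 0.70 ± 0.08 and Itga9, an integrin subunit, 0.84 ± 0.10.

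Among the genes that fell, Rgs6, which shortens G protein signals, stood at 52.7, 56.9, 71.4, 56.7 and 54.7 CPM in combination mice, against 98.9, 96.2, 98.3, 99.8 and 95.5 CPM in salviolone mice. The salviolone mice lay close together and above every combination mouse (log2 fold change -0.74 ± 0.09, adjusted p = 6.6e-06, edgeR). Cds1, an enzyme of phosphoinositide synthesis, was at 114 ± 6.18 CPM with the combination and 190.4 ± 7.91 CPM with salviolone (log2 fold change -0.75 ± 0.09, adjusted p = 9.78e-06, edgeR), and Efr3a, which anchors a phosphoinositide kinase at the membrane, at 74.2 ± 7.60 CPM with the combination and 133 ± 9.36 CPM with salviolone (log2 fold change -0.84 ± 0.11). Olfml2b, an olfactomedin-like gene, was at 6.66 ± 0.517 CPM with the combination and 15.2 ± 1.35 CPM with salviolone and Alox12b, a lipoxygenase, at 4.02 ± 0.752 CPM with the combination and 10.2 ± 1.56 CPM with salviolone. Cemip, a hyaluronan-degrading protein, had a log2 fold change of -0.93 ± 0.12, Zfp703, a zinc finger factor, -0.80 ± 0.11, Mb21d2 -0.55 ± 0.07 and Tlcd3b, a ceramide synthase-related gene, -0.50 ± 0.07. Against the model control, Rgs6 had a log2 fold change of -0.70 ± 0.09 with the combination and 0.04 ± 0.09 with salviolone, and Cds1 -0.63 ± 0.09 and 0.12 ± 0.09. Neither was called for salviolone, with adjusted p of 0.901 and 0.662 (edgeR).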

How the data were processed

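Cortex RNA of 25 mice was sequenced, and all 25 libraries entered each fit. Per the submitters' processing notes, the authors trimmed reads with Trim Galore and aligned them with STAR to mm39. The sources used here name no tool version, counter, strand setting or annotation, so antisense and overlapping genes cannot be separated. The labels' protocols name both a TruSeq and a SMARTER mRNA kit for the libraries. The authors deposited raw counts per gene, the unit of the main test, and FPKM per gene, used in alternatives. The FPKM imply a length under 1000 bases for 4 of 40 named genes (Ryr3, Sv2c, Cds1 and Vip), so levels were not compared between genes.

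The count table holds 21720 genes, 2769 of them at 0 in all 25 libraries. Multiples of 4 made up 44.3% of the counts of 4 to 39, where 25% would come by chance, and no source used here gives a reason. edgeR 4.0.16 (R 4.3.3) kept 16515 genes with filterByExpr (minimum count 10), scaled by TMM (factors 0.980 to 1.04), with 1 coefficient per group, robust quasi-likelihood fits, two-sided tests and Benjamini-Hochberg adjustment. A count of 0 allows up to 3 counts, 0.0273 to 0.0505 CPM, which covers counting error only. On simulated counts for this comparison over 16515 genes, 70% of genes changed 1.5-fold and 91% of those changed 2-fold were recovered. Far fewer genes were changed there than were called in the data, and none of low mean level. The shares may therefore not hold for the data. The score of a list is its members' mean log2 CPM, with a prior count of 2.

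The members of this comparison, the 45 gene lists, the 5 marker genes and the tests were chosen with earlier results of these data known. Named genes were, in each direction, the 14 calls of smallest p whose mean log2 CPM reached 1 (predicted genes and pseudogenes passed over), the 5 markers, the 20 called list members with the smallest p, and App and Prnp. A few genes that this rule also takes are not reported here. Other genes were chosen after their values were seen, as list members. Alternatives were RLE factors, other filters, DESeq2 1.42.0, limma-voom 3.58.1, limma on log2(FPKM + 0.1) or log2(FPKM + 1), fewer groups in the fit, a replicate block, no mitochondrially encoded genes, thinned counts, counts divided by 4, tissue scores as covariates, leaving out libraries, an unadjusted p and a minimum fold. No set test was run.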

Additional observations from a re-analysis of the deposited data

Results flagged for a closer look

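In the 40 named genes and 45 list scores, each of the combination and salviolone groups was searched for a mouse standing apart from the other 4 (Dixon's gap over range, above 0.71). Of 170 such groups 11 were found, and chance gives about 1 in 20. The named genes hold 3 of them. Rgs6 was at 71.4 CPM in combination mouse 3, against 52.7 to 56.9 CPM in the other combination mice. Asic4 was at 14.7 CPM in salviolone mouse 1, against 18.7 to 19.4 CPM in the others, and Itga9 at 19.6 CPM in salviolone mouse 4, against 13.8 to 15.5 CPM. The directions of all of these genes are the same with each mouse left out.

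The other 8 are list scores, in mean log2 CPM. Salviolone mouse 1 stood apart with 1.72 for choroid plexus, against -0.43 to 0.16 in the other salviolone mice, 6.54 for amyloid processing and clearance, against 6.37 to 6.42, and 7.43 for calcium channels and stores, against 7.49 to 7.51. Salviolone mouse 5 had 4.53 for GABA-A receptor subunits, against 4.85 to 4.94, and 6.65 for the circadian clock, against 6.49 to 6.53. Salviolone mouse 3 had 4.09 for NFI and ventral forebrain transcription factors, against 4.17 to 4.20. Combination mouse 2 had 7.56 for calcium channels and stores, against 7.52 to 7.53, and 7.41 for mitochondrially encoded genes, against 7.67 to 7.76. The cause of these values was not tested.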

How the results depend on the processing

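The count of called genes (2954, with 1595 higher and 1359 lower) was between 2841 and 3525 with RLE factors, other filters, DESeq2, limma-voom, FPKM, fewer groups in the fit, no mitochondrially encoded genes, thinned counts or counts divided by 4. Leaving out each mouse gave 2327 to 2856 called genes, 1289 to 1535 higher and 1038 to 1321 lower. It was 1476 (869 higher, 607 lower) without the 3 deepest combination libraries, of which 1336 were also called with all libraries. A fold minimum of 1.2 gave 940 (586 higher, 354 lower), and an unadjusted p under 0.05 gave 4881 (2521 higher, 2360 lower). With 4 tissue scores as covariates (hypothalamus, striatum, thalamus and choroid plexus), 0 genes were called, 0 higher and 0 lower (edgeR), with 392 at an unadjusted p under 0.05. The hypothalamus score alone and the striatum score alone, added after seeing the data, also gave 0, with 1138 and 1808. Over the 2954 genes the median size of the log2 fold change was then 0.15, 0.19 and 0.34, against 0.44, its median standard error 0.19, 0.15 and 0.19, against 0.10, and 80.9%, 89.5% and 97.0% of the genes kept their sign.

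Of 1200 values of the 40 named genes under the alternatives, 1070 kept their direction and their side of the threshold, and 129 kept their direction and lost the call. Slc32a1 had -0.0432 with the 4 scores, with the sign turned. The cause was not tested. With a replicate block 2966 genes were called (1606 higher, 1360 lower) and no named gene changed its call, while 5 instead of 3 plaque-associated microglia genes fell. Same-numbered mice did not deviate together (correlations -0.07 to 0.02), and the labels give the numbers no meaning, so the block is not a pairing. Some hypothalamus genes had few counts with salviolone: Pmch, Sim1, Otp, Oxt, Calcr and Ghrh were at 0 counts in at least 1 salviolone mouse. Of these, Ghrh was also near the floor with the combination, at 3 to 24 counts.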
